A study of Homo sapiens with 5 samples.

Results

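Fluvastatin, a statin that blocks the mevalonate pathway, was compared with water in MDA-MB-231 cells for 10 genes that carry amino acids across the plasma membrane. The genes are SLC7A1, SLC7A2, SLC7A5, SLC3A2, SLC7A8, SLC1A4, SLC1A5, SLC38A1, SLC38A2 and SLC43A2. They have 16 probes among the 47231 on the array, and a probe was kept when its detection p was under 0.05 on at least 2 of 4 independent arrays. That left 10 probes of 8 genes, out of 21986 probes and 12080 named genes kept in all. SLC7A8 and SLC1A4 had no probe kept. The gene list was drawn up with results of these arrays already known. SLC7A2 and SLC43A2 were chosen by their large log2 differences between the 2 groups, so both are described here with no test.

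The MDA-MB-231 line was grown from human breast cancer, lacks the estrogen receptor and is labelled as basal. Untreated cultures received sterile water and treated cultures received 10 µM fluvastatin, both for 24 h in serum-containing medium with added glutamine. Total RNA was read on Illumina bead arrays. The labels list 3 control and 2 fluvastatin samples, but control replicate 2 equalled the mean of control replicates 1 and 3 in 47231 of 47231 probes (within 1e-06) and was left out. The comparison is therefore of 2 control arrays with 2 fluvastatin arrays. For the fluvastatin samples the protocol field carries the wording of the water controls, and the groups therefore follow the titles and characteristics. Nothing says that replicates came from separate cultures, so the p-values cover only the spread among these arrays, which may be technical.

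The arrays detected 43.0% to 46.9% of probes. The 6 markers of basal and mesenchymal-type breast cells (VIM, CD44, AXL, CAV1, MSN and ANXA1) were all detected, and ESR1, PGR, FOXA1, TFF1 and AGR2 were detected on no array, with XBP1 the only luminal marker above background. Of the markers of other cell types, CD68, PECAM1, COL1A1 and COL1A2 were detected on at least 2 arrays, while PTPRC, CD3E, CDH5, VWF and DCN were at background on every array. The summed deposited, not normalized intensity was higher with fluvastatin for several lists, the cells' own included. It ran from 52116 to 70439 in controls and from 75016 to 93020 with fluvastatin for the basal markers, and from 2534 to 3645 and from 5135 to 5419 for the luminal ones. For the leukocyte markers, of which CD68 alone was detected, it ran from 1984 to 2548 and from 3416 to 4096, and for the endothelial markers from 192 to 194 and from 229 to 263. The fibroblast sums overlapped (481 to 511 and 510 to 562). The part of these levels in the results was not tested.

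Amino acid transporters work as a network. Exchangers such as SLC7A5 and SLC1A5 swap an amino acid inside the cell for one outside, sodium-coupled carriers of the SLC38 family load the cell with the small neutral amino acids and glutamine that the exchangers spend, and uniporters such as SLC43A2 let amino acids run down their gradient. Cationic amino acid transporters of the SLC7 family bring in arginine, lysine and ornithine. Tumour cells often carry high levels of SLC7A5 and SLC1A5, and the leucine they help to supply is one of the signals that activates the growth-controlling kinase complex mTORC1. Many of these genes respond to amino acid shortage through the transcription factor ATF4, which binds C/EBP-ATF response elements.

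Promoter windows show which of these genes hold such an element near a start site. RefSeq windows of GRCh38.p14 each hold 250 bases before and 50 after an annotated start. They were searched for 9 of the 10 genes, 20 windows in all, since a gene can have several starts. SLC7A2 was left out of the search by choice. The core of the C/EBP-ATF response element, searched as TGATGNAA on both strands, was found in 5 of the 20 windows, 1 each of SLC7A1, SLC3A2, SLC1A5, SLC38A1 and SLC1A4. It was found in 3.62% of all 35116 windows, and in 4.46% of 27305 genes in at least 1 window. The stretches around these matches are shown 5′ to 3′ on the gene's strand, with the match in capitals (TTNCATCA where it lies on the opposite strand).

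SLC7A1, chr13:29595648-29595707, minus strand: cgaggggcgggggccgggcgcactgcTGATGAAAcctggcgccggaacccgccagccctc
SLC3A2, chr11:62881689-62881748, plus strand: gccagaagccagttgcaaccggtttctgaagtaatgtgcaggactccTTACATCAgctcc
SLC1A5, chr19:46784878-46784937, minus strand: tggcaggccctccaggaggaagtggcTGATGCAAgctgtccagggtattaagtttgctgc
SLC38A1, chr12:46266487-46266546, minus strand: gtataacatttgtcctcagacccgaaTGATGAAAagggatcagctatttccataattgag
SLC1A4, chr2:64989366-64989425, plus strand: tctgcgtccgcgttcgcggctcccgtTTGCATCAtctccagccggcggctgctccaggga

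Counted from the annotated start, whose first transcribed base is 1 and the base before it -1, the match began at base 8 in SLC7A1 and at base 38 in SLC3A2. It began at base -4 in SLC38A1, at -7 in SLC1A4 and at -97 in SLC1A5. SLC7A5, SLC38A2, SLC43A2 and SLC7A8 had no match in these windows. Of the genes with a match, SLC3A2 and SLC1A5 fell, SLC7A1 and SLC38A1 did not pass and SLC1A4 was not measurable, as given below by gene. A match is a run of letters and not a measured binding site.

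Other motifs were also searched on both strands. The E-box CACGTG, a site bound by MYC among other factors, was in the single window of SLC7A5 and in 1 window each of SLC1A5 and SLC7A8, against 7.26% of all windows. The TEAD site GGAATG was in 1 window of SLC43A2 and 1 of SLC1A5, against 14% of all windows. The sterol regulatory element core TCACNCCAC was in 1 window of SLC1A4, against 1.13%. None of these matches overlapped another. The whole windows of SLC7A5, the member with the lowest p among those tested, and of SLC43A2, whose level differed most upward, are shown with the E-box and the TEAD site in capitals.

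SLC7A5, chr16:87869458-87869757, minus strand: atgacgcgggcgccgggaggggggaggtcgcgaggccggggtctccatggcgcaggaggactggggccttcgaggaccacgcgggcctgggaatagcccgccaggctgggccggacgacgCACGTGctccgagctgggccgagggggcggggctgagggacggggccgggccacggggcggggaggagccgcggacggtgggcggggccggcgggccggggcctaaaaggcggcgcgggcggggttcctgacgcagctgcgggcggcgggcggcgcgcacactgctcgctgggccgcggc
SLC43A2, chr17:1628367-1628666, minus strand: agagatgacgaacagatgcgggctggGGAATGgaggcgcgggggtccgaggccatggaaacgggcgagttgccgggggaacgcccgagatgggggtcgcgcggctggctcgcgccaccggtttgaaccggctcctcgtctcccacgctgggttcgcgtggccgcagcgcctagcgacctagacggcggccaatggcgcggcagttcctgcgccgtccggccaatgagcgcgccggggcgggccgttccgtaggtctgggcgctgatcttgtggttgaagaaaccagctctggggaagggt

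The values below are intensities as deposited and log2 intensities after background correction and quantile normalization, 1 value per array, with differences given as fluvastatin minus control on the log2 scale. Levels of different probes are not comparable with each other. Values after ± are limma's moderated standard errors (SE). Their variance is drawn toward that of all probes kept, so they are not the spread of these arrays alone. Because whole cultures were lysed, less RNA per cell cannot be told apart from fewer cells that carry it. In the tests, 6 genes of the list were judged by limma across all probes kept, with Benjamini-Hochberg adjustment and a threshold of 0.05. SLC7A5, SLC3A2 and SLC1A5 fell, 0 rose, and SLC7A1, SLC38A1 and SLC38A2 did not pass. Of all 12080 genes 20.1% passed, 9.65% lower and 10.5% higher, and of all probes kept 16.9% passed. With median scaling, which moved the median log2 difference of all probes to 0.19, SLC7A5 alone passed. The count was 1 without control replicate 1 and 0 without control replicate 3. The groups did not overlap in 5 of the 6 genes, beside 69.6% of all genes. The median log2 difference was -0.77 for the 8 measured genes and also -0.77 for the 6 tested ones, beside 0.01 for all genes. With members chosen after results of these arrays were known, these medians are description only.

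**Figure D1:**
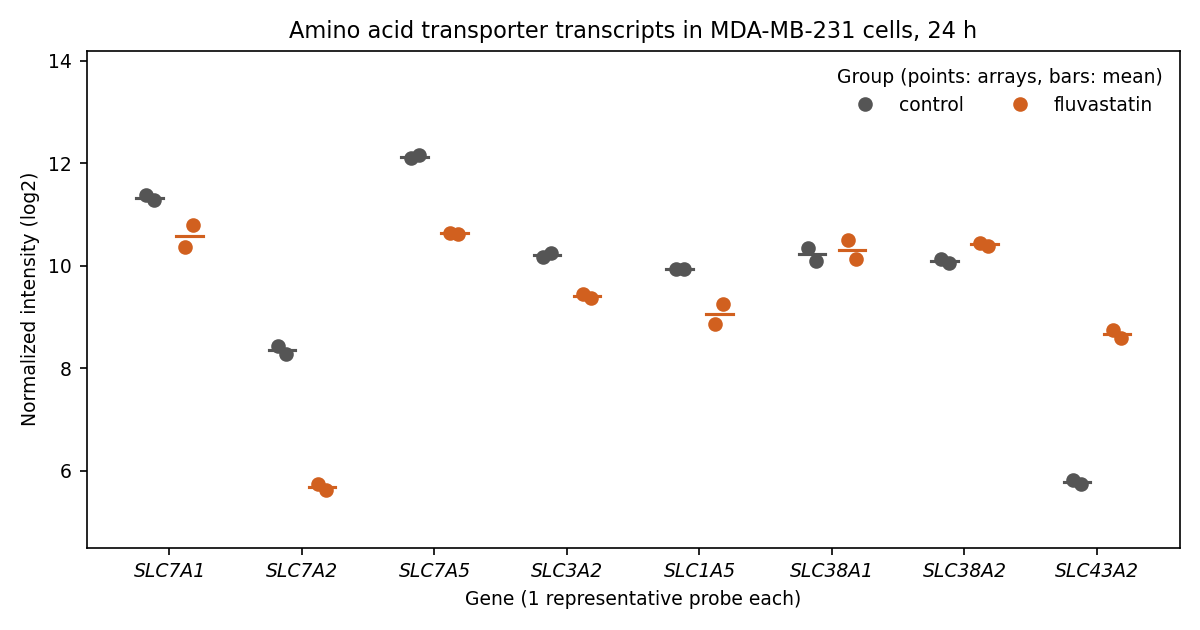
Normalized log2 intensity (vertical axis) of the representative probe of each measured transporter gene (horizontal axis), with control arrays in grey and fluvastatin arrays in orange, 2 points per group and a bar at their mean. The fluvastatin points of SLC7A2 (5.74 and 5.62) lie far below the controls and those of SLC43A2 (8.75 and 8.60) far above, while the groups of SLC38A1 overlap.

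SLC7A5 had the largest fall among the 6 tested genes. It encodes LAT1, the light chain that exchanges leucine, phenylalanine, tryptophan and other large neutral amino acids for intracellular glutamine. Its probe (ILMN_1720373) had deposited intensities of 4512.2 and 3581.3 in control replicates 1 and 3 and of 1906.5 and 1738.7 in fluvastatin replicates 1 and 2. The normalized log2 values were 12.10 and 12.17 in controls and 10.65 and 10.63 with fluvastatin. Both fluvastatin arrays were well below both controls, on the deposited and on the normalized scale, and the replicates of each group lay within 0.1 of each other. The log2 difference was -1.50 ± 0.15 (moderated SE, n = 2 each), with a 95% interval of -1.87 to -1.13. This 2.83-fold lower level had a limma adjusted p of 0.00833. Without control replicate 3 the adjusted p was 0.0518 at a difference of -1.46, in a fit whose control group was 1 array assumed to vary like the others.

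SLC3A2 encodes CD98hc (4F2hc), the heavy chain that binds LAT1 and other light chains through a disulfide bond and brings them to the membrane. Its brighter probe (ILMN_1726456) had deposited intensities of 1233.1 and 965.8 in controls and of 883.2 and 766.0 with fluvastatin. It read 10.17 and 10.26 in controls and 9.45 and 9.38 with fluvastatin, a log2 difference of -0.80 ± 0.15 (95% interval -1.18 to -0.42; limma adjusted p = 0.0255). The groups did not overlap, and the 1.74-fold lower level was a smaller difference than that of its partner SLC7A5, although the gap between the 2 genes was not tested. The dimmer probe (ILMN_1679041) was also lower with fluvastatin after normalization, with 8.92 and 8.68 against 8.01 and 8.23. Its deposited intensities overlapped, with 536.2 and 347 in controls against 364.2 and 377.3 with fluvastatin. That probe narrowly missed the threshold (log2 difference -0.68 ± 0.18, limma adjusted p = 0.0535). The call of the brighter probe was lost without control replicate 1 (adjusted p = 0.168) and without control replicate 3 (adjusted p = 0.224), both by limma with 1 control array, and with median scaling (adjusted p = 0.134), at differences of -0.83, -0.75 and -0.61.

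SLC7A5P2, a pseudogene copy of SLC7A5, has 3 probes on the array that could share transcripts with it. A dim one detected on all 4 arrays gave a log2 difference of 0.57 (limma adjusted p = 0.0858), a second dim one detected on 2 arrays gave 0.66 (adjusted p = 0.0700), and a very bright one, with deposited intensities of 23042 to 26703, gave -0.18 (adjusted p = 0.446). None of the 3 passed. Whether any of these probes binds SLC7A5 transcripts was not tested.

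SLC7A8 encodes LAT2, the other SLC3A2-bound exchanger of neutral amino acids, and its 3 probes were above background on no array. Their deposited intensities lay between 53.1 and 77.1, with detection p from 0.148 to 0.991. No difference is given, since only an upper bound exists in both groups.

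SLC43A2 encodes LAT4, which needs neither sodium nor a heavy chain and lets branched-chain amino acids, phenylalanine and methionine pass down their gradient. Its one probe (ILMN_1787127) had deposited intensities of 103.0 and 90.7 in controls, just above background (detection p 0.0013 and 0.0026), and of 568.4 and 468.3 with fluvastatin. The normalized log2 values were 5.83 and 5.74 in controls and 8.75 and 8.60 with fluvastatin. Both fluvastatin arrays were thus far higher, with a log2 difference of 2.89 ± 0.16 (moderated SE, n = 2 each) or 7.42-fold. Among 12080 genes this was the difference ranked 12 from the highest. Since the control signal was near background, the size depended on the correction, and it was 1.99 in the authors' log2 values, 2.12 without background correction and 3.13 with median scaling.

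**Figure D2:**
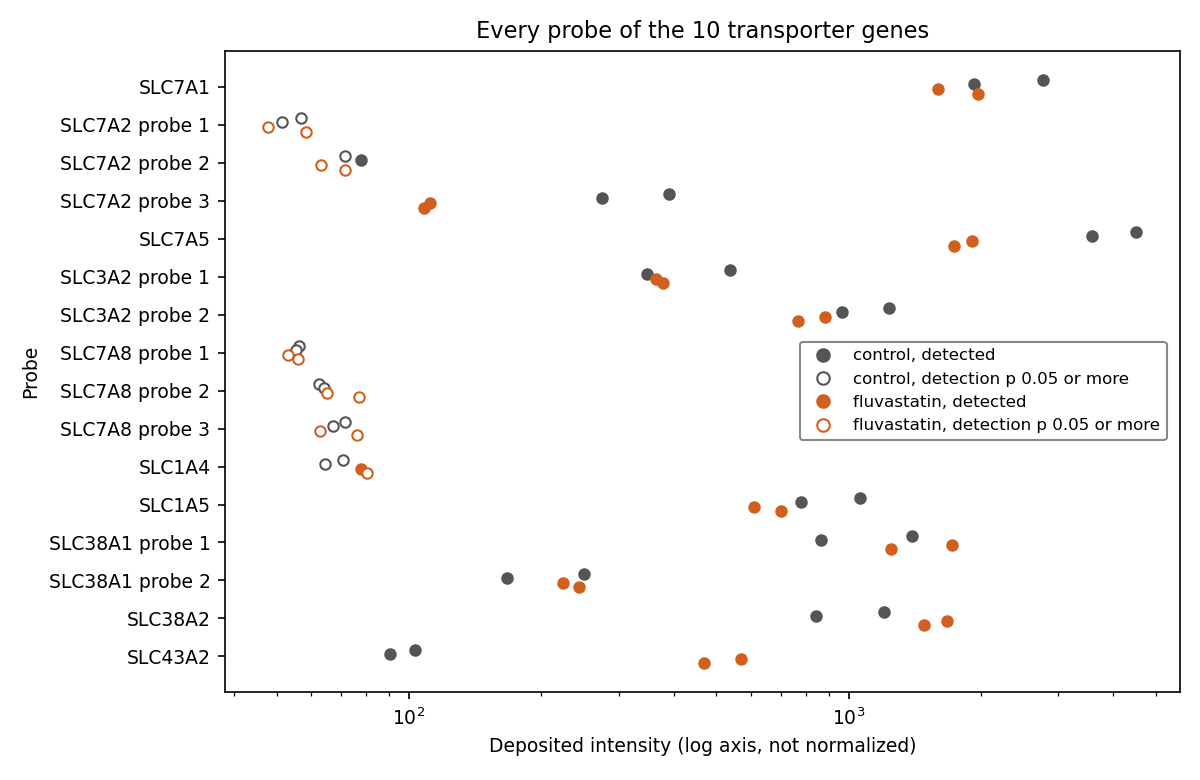
Deposited, not normalized intensity (horizontal log axis) of all 16 probes of the 10 genes (vertical axis), 4 independent arrays each, with filled points for detection p under 0.05 and open points otherwise. The SLC7A8 probes are open on every array, SLC1A4 has 1 filled point, and SLC43A2 moves from 90.7 and 103.0 to 468.3 and 568.4.

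Of the cationic amino acid transporters, SLC7A2 was far lower with fluvastatin. It encodes CAT-2, whose splice forms differ in their affinity for arginine and whose inducible form supplies arginine to nitric oxide synthase in activated macrophages. Its probe above background (ILMN_1781400) had deposited intensities of 390.1 and 274.5 in controls and of 111.5 and 108.4 with fluvastatin, and normalized log2 values of 8.43 and 8.29 against 5.74 and 5.62. The log2 difference was -2.68 ± 0.16 (moderated SE, n = 2 each), 6.39-fold lower and ranked 10 from the lowest of 12080 genes. Both fluvastatin arrays were close to background, so the size depended on the correction here too, with -1.76 in the authors' log2 values and -1.90 without background correction.

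Its other probes were at or near background, and which of the 3 reports the gene's transcripts was not tested. ILMN_1711451, which the platform assigns to the same transcript accession as the bright probe, was detected on control replicate 3 alone (detection p 0.0338; intensities 71.6 and 77.6 in controls, 63.2 and 71.7 with fluvastatin). ILMN_1685830, assigned to another transcript accession of the gene, was detected on no array (47.9 to 58.3). The description of SLC7A2 therefore rests on 1 of 3 probes.

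SLC7A1 encodes CAT-1, the widely expressed carrier of arginine and lysine. Its probe (ILMN_1683859) read 11.39 and 11.28 in controls and 10.38 and 10.80 with fluvastatin. The normalized groups did not overlap, but the deposited intensities did (2768.6 and 1924.2 against 1597.1 and 1967.7), and the fluvastatin replicates differed by more than the controls. The log2 difference of -0.74 ± 0.20 (95% interval -1.23 to -0.26) did not pass (limma adjusted p = 0.0554). It passed in 5 of 8 alternatives that kept all independent arrays, with the authors' log2 values at an adjusted p of 0.0219 by limma. Among these 5 was the fit of all 5 deposited columns, where the averaged control counts as an independent array. Leaving out fluvastatin replicate 2 it also passed, at -0.95 (adjusted p = 0.0222), and leaving out another array gave an adjusted p of 0.0713 to 0.264.

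SLC1A5 fell among the sodium-dependent exchangers of small neutral amino acids. It encodes ASCT2, a main route of glutamine uptake in many cancer cells. Its probe (ILMN_1707720) had deposited intensities of 1060.1 and 779.3 in controls and of 607.7 and 703.3 with fluvastatin, and log2 values of 9.95 and 9.94 against 8.86 and 9.25. Both fluvastatin arrays were lower on either scale, replicate 1 more so than replicate 2. The log2 difference was -0.89 ± 0.19 (95% interval -1.36 to -0.43), 1.86-fold lower, with a limma adjusted p of 0.0321. The call was lost with 1 control array, at -0.88 without control replicate 1 and -0.90 without control replicate 3. It was also lost with median scaling (-0.69, limma adjusted p = 0.0843) and without a filter on dim probes (-0.89, adjusted p = 0.0533). Over all settings the difference stayed between -1.09 and -0.69.

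SLC1A4, which encodes the related ASCT1 for alanine, serine and cysteine, was not measurable. Its probe was above background on fluvastatin replicate 1 alone (detection p 0.0429), with deposited intensities of 70.7 and 64.5 in controls and 77.8 and 80.3 with fluvastatin. Of the probes near the detection limit, this one and the second SLC7A2 probe lay just outside the rule with 1 array each, and every probe that was kept had been detected on all 4 arrays.

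The sodium-coupled carriers of the SLC38 family showed no passing difference. SLC38A1 encodes SNAT1, which takes up glutamine and other neutral amino acids with sodium. Its brighter probe (ILMN_1769911) read 10.36 and 10.10 in controls and 10.50 and 10.13 with fluvastatin, and its dimmer probe (ILMN_2266948) 7.69 and 7.35 against 7.17 and 7.45. The groups overlapped for both probes, and their signs were opposite. The brighter gave a log2 difference of 0.08 ± 0.20 (95% interval -0.41 to 0.58; limma adjusted p = 0.793) and the dimmer -0.22 ± 0.20 (95% interval -0.71 to 0.27; adjusted p = 0.476). These intervals still allow a fall or a rise of moderate size.

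SLC38A2 encodes SNAT2, a close relative whose gene is a textbook target of the response to amino acid shortage. Its probe (ILMN_1651799) read 10.13 and 10.06 in controls and 10.45 and 10.39 with fluvastatin, so both treated arrays were the higher ones. The log2 difference of 0.32 ± 0.15 (95% interval -0.05 to 0.70) did not pass (limma adjusted p = 0.187). It passed only when all 5 deposited columns entered the fit (adjusted p = 0.0265), where the averaged control counts as an independent array.

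**Figure D3:**
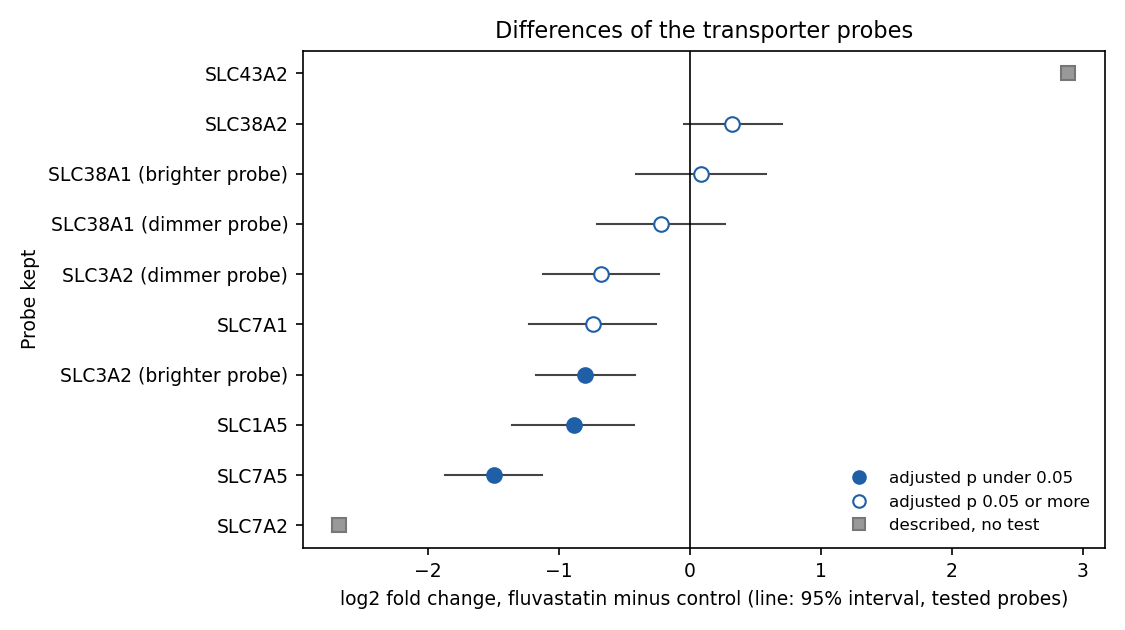
Log2 fold change, fluvastatin minus control (horizontal axis), of the 10 probes kept (vertical axis), with 95% intervals for the tested ones, filled circles past an adjusted p of 0.05, open circles not past it and grey squares for the genes that were only described. SLC7A5 lies at -1.50 and the tested probes end at 0.32 for SLC38A2, with SLC7A2 at -2.68 and SLC43A2 at 2.89 outside that range.

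The genes with 4-array patterns nearest to the 2 extreme members were listed by Euclidean distance of log2 values centred on the control mean, over 4 arrays and 11932 other genes. For SLC7A2 these were MCM10 (distance 0.173, log2 difference -2.66), RRS1 (0.230, -2.53) and CTPS1 (0.398, -2.41), genes of DNA replication, ribosome assembly and CTP synthesis. For SLC43A2 they were the tight junction gene CLDN7 (distance 0.180, log2 difference 2.95), the actin-severing protein gene GSN (0.240, 2.80) and the epithelial transcription factor gene ELF3 (0.242, 2.84). With 4 arrays in 2 groups, this measure mostly finds genes with a difference of the same size.

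Of 36 further amino acid transporter genes listed, 35 were named by the platform and 16 had a probe kept. On the array 21986 of 47231 single probes were kept, a share of probes that cannot be set against a share of genes. Of these 16 genes, 2 rose, 3 fell and 11 did not pass (background 10.5% higher and 9.65% lower). Their median log2 difference was -0.17. The count of 5 passing genes became 0 without control replicate 1, 1 without control replicate 3 and 9 without fluvastatin replicate 2. The glycine transporter gene SLC6A9 rose by 1.28 (limma adjusted p = 0.0109), though its second kept probe gave 0.11 (adjusted p = 0.729). SLC38A7, a glutamine carrier reported at the lysosome, rose by 0.90 (limma adjusted p = 0.0289). The aromatic amino acid uniporter gene SLC16A10 was above background on both controls and on no fluvastatin array, and was at least 1.70-fold lower (limma adjusted p = 0.0128). Its probe passed the detection filter through the controls alone, so a difference was bound to appear and its call carries no weight in the count. On probes detected on all 4 arrays 4 genes of this list passed, 2 of them higher. SLC7A11, the cystine and glutamate exchanger that also uses SLC3A2 as its heavy chain, fell by 0.96 (adjusted p = 0.0372 by limma), from 5.84 and 6.19 to 4.87 and 5.25. The last of the 5, SLC38A4, fell by 0.61 (limma adjusted p = 0.0469), from 5.56 and 5.56 to 4.99 and 4.90. It was named after its value was seen. SLC7A11 and SLC38A4 both read low in both groups and closest to background on the fluvastatin arrays, so the size of their falls is uncertain. Named after its value was seen, SLC7A6, a further SLC3A2-bound light chain for cationic and neutral amino acids, did not pass with its brighter probe (-0.62, limma adjusted p = 0.135) but did with the dimmer one (-1.08, adjusted p = 0.0304).

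**Figure D4:**
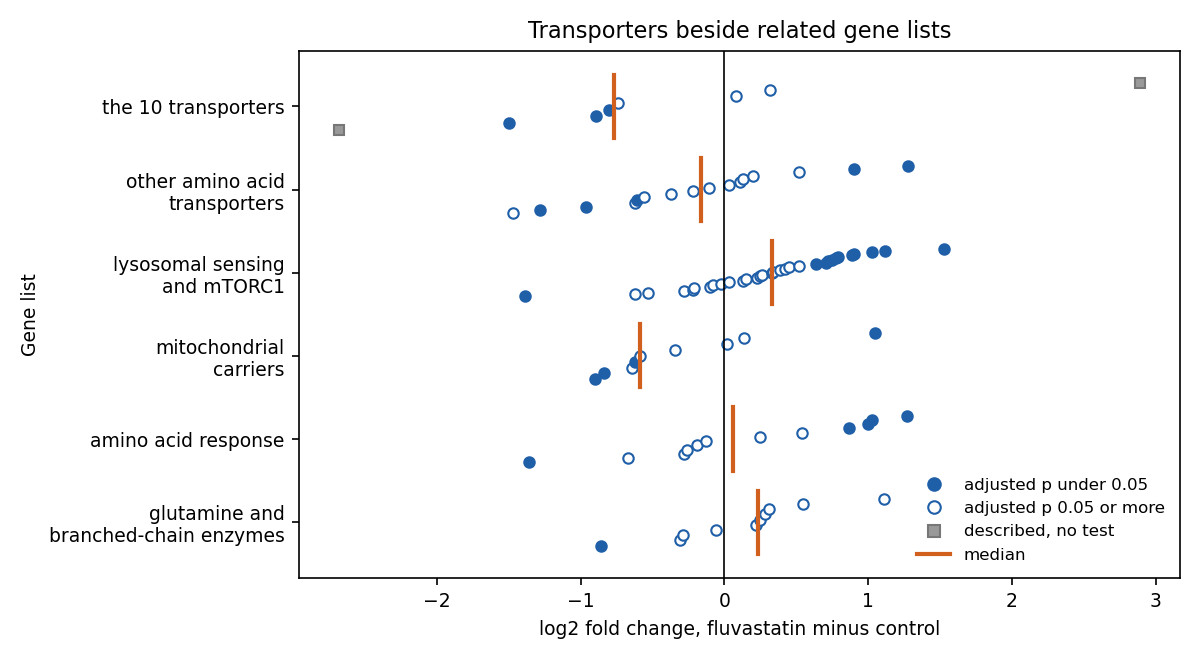
Log2 fold change, fluvastatin minus control (horizontal axis), of each measured gene in the transporter set and 5 related lists (vertical axis), with filled points past an adjusted p of 0.05, grey squares for the 2 genes described without a test and an orange bar at each list's median. The medians run from -0.77 for the 8 measured transporters, the 2 described genes included, to 0.34 for the lysosomal sensing and mTORC1 list, beside 0.01 for all genes.

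Carriers of amino acids in the mitochondrial inner membrane had a median of -0.59, with 3 of 9 measured genes lower, 1 higher and 5 not past the test (all genes 9.65% lower and 10.5% higher). The aspartate-glutamate carrier gene SLC25A13 fell by 0.90 (limma adjusted p = 0.0272), the serine carrier gene SFXN1 by 0.84 (adjusted p = 0.0315) and the ornithine carrier gene SLC25A15 by 0.62 (adjusted p = 0.0467), while SFXN3 rose by 1.05 (adjusted p = 0.0177). With median scaling 1 of the 9 genes passed, and it was higher.

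Genes of lysosomal amino acid sensing and of mTORC1 were mostly measurable. The list also holds inhibitors of mTORC1, so its counts give no direction of mTORC1 activity. Of 32 measured genes, 11 rose, 1 fell and 20 did not pass (all genes 10.5% higher and 9.65% lower), with a median log2 difference of 0.34. RRAGC, a Rag GTPase that docks mTORC1 on the lysosome, rose by 1.53 (limma adjusted p = 0.00999), from 9.29 and 9.13 to 10.87 and 10.60. The arginine sensor gene CASTOR1 rose by 0.89 (limma adjusted p = 0.0263) and the folliculin partner gene FNIP1 by 1.03 (adjusted p = 0.0327). SEH1L, a subunit of the GATOR2 complex and of the nuclear pore, fell by 1.39 (limma adjusted p = 0.0110). Its other kept probes gave -1.02 (limma adjusted p = 0.0261) and -0.57 (adjusted p = 0.142), the latter not passing. Also named after their values were seen, MTOR was at -0.28 (adjusted p = 0.316) and RPTOR at -0.22 (adjusted p = 0.405). Of this list, 5 genes passed without fluvastatin replicate 1, 1 without control replicate 1 and 0 without control replicate 3.

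Genes of the amino acid response, which ATF4 controls downstream of the kinase GCN2, went both ways. Of 12 measured, 4 rose, 1 fell and 7 did not pass (all genes 10.5% higher and 9.65% lower), with a median log2 difference of 0.06. DDIT3, which encodes CHOP, rose by 1.27 (limma adjusted p = 0.0152) and CEBPB by 0.87 (adjusted p = 0.0242). The asparagine synthetase gene ASNS rose by 1.00 (limma adjusted p = 0.0231), though its second kept probe gave 0.66 (adjusted p = 0.0857). The serine synthesis gene PSAT1 fell by 1.36 (limma adjusted p = 0.00919). The fifth, DDIT4, an inhibitor of mTORC1, rose by 1.03 (limma adjusted p = 0.0248); it and ATF4, at -0.13 (adjusted p = 0.612), were named after their values were seen. On the same arrays DDIT3, ASNS, CEBPB and DDIT4 differed in the opposite direction from SLC3A2 and SLC1A5, and PSAT1 in the same direction. What part ATF4 had in any of these differences was not tested.

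Among enzymes that use glutamine and branched-chain amino acids, GOT1, the cytosolic aspartate aminotransferase, fell by 0.86 (limma adjusted p = 0.0226) and was the only one of 10 measured genes to pass (all genes 20.1%). The median log2 difference was 0.23. With median scaling 1 gene passed as well, but higher. The branched-chain aminotransferase genes did not pass and were named after their values were seen, with BCAT1 at -0.31 (limma adjusted p = 0.428) and BCAT2 at 0.55 (adjusted p = 0.0696). Leaving out control replicate 1 or control replicate 3, 0 genes passed in the mitochondrial, amino acid response and enzyme lists.

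**Figure D5:**
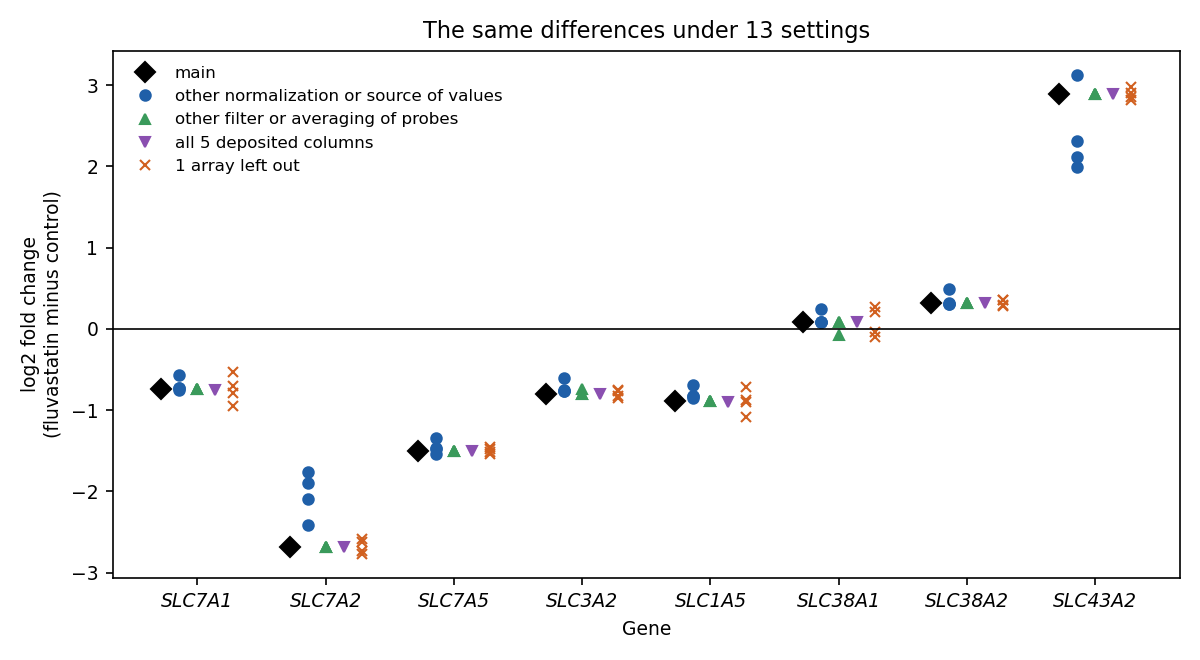
Log2 fold change, fluvastatin minus control (vertical axis), of the 8 measured transporter genes (horizontal axis) in 13 settings, with the reported value as a black diamond. SLC7A5 stays between -1.54 and -1.34, SLC7A2 spreads from -2.77 to -1.76 and SLC43A2 from 1.99 to 3.13, and SLC38A1 lies on both sides of 0.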

How the data were processed

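RNA of 4 independent arrays, 2 per group, was compared. The authors deposited an intensity for each probe, not normalized as far as the values show, and, per the file headers, its detection p-value. A second deposited table holds log2 values of nearly equal distribution in every column. Its normalization is not given in the sources used here, and R 3.1.0 is named per the submitters' processing notes. No per-sample column stayed unmapped (0).

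From the intensities, neqc in limma 3.58.1 (R 4.3.3) took the background from the detection p-values, corrected it by normexp with an offset of 16, quantile-normalized and took log2. After the detection filter (p under 0.05, 2 arrays), limma's lmFit and eBayes gave two-sided tests with 2 residual and 3.72 prior degrees of freedom. Benjamini-Hochberg adjustment ran over all 21986 probes. Each gene stands for its brightest kept probe. Symbols are the platform's (RefSeq identifiers changed 0). SLC16A10's bound set the control mean against, per array, the larger of its own signal and the lowest detected one.

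Members and lists were chosen with earlier results of these data known. The text names all members, up to 4 passing genes of each list by smallest p, and the 3 nearest genes of SLC7A2 and SLC43A2, with exceptions marked. The fit was tested on simulated data. The number of arrays limits the precision. Alternatives changed the background correction, offset, scaling, probe filter, value table, probe summary and arrays.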

Additional observations from a re-analysis of the deposited data

How the results depend on the processing

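All 12 alternatives kept the sign of the log2 difference of 7 of the 8 measured transporter genes. SLC38A1 turned to -0.07 with the mean of its probes, and to -0.04 without control replicate 3 and -0.10 without fluvastatin replicate 1; the cause was not tested. SLC7A5 passed in all 8 alternatives that left out no array. SLC7A1 came to pass at -0.73 without background correction and with an offset of 50, at -0.75 in the authors' log2 values and with all 5 deposited columns, and at -0.74 on probes detected on all 4 arrays. SLC38A2 passed at 0.32 with all 5 columns. SLC3A2 missed the threshold at -0.61 with median scaling, and SLC1A5 at -0.69 there and at -0.89 without a filter on dim probes. SLC7A2 was -1.90 and SLC43A2 2.12 without background correction, -2.09 and 2.31 with offset 50, -2.41 and 3.13 with median scaling, and -1.76 and 1.99 in the authors' values.

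Probes past the threshold numbered 3722 (51% higher), 8927 with all 5 columns, where the averaged control counts as an array, and 4314 with median scaling (77.7% higher). The transporter count of 3 became 1 with median scaling and 5 with all 5 columns. Of the other lists, other transporters went from 5 to 3 in the authors' values, lysosomal sensing from 12 to 6 without the filter, and mitochondrial carriers from 4 to 1 with median scaling and 7 with all 5 columns. The enzymes went from 1 to 3 in the authors' values, with offset 50 and without background correction, to 2 on probes detected on all 4 arrays and to 4 with all 5 columns.

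Leaving out 1 array at a time, with the lone array assumed to vary like the other group, gave 433 to 7046 probes. Log2 differences ran from -0.95 to -0.53 for SLC7A1, -2.77 to -2.59 for SLC7A2, -1.54 to -1.46 for SLC7A5, -0.85 to -0.75 for SLC3A2, -1.09 to -0.71 for SLC1A5, -0.10 to 0.27 for SLC38A1, 0.28 to 0.36 for SLC38A2 and 2.82 to 2.98 for SLC43A2. Counts ran from 0 to 4 for the transporters, 0 to 9 for other transporters, 0 to 13 for lysosomal sensing, 0 to 6 for mitochondrial carriers, 0 to 7 for the amino acid response and 0 to 2 for the enzymes. No paired analysis was possible because the independent arrays of the 2 groups share 1 replicate number. Signal over background limits SLC43A2 in controls, SLC7A2 with fluvastatin, and SLC7A8 and SLC1A4 in both groups.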
